A study of Mus musculus with 6 samples.

Results

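The complement genes expressed in cultures of mouse dermal cells were compared between control (CTL) and Nelfb-/- cells. The genes were taken from a list of 36 complement components, receptors and regulators, a choice by name that was made with earlier results of these data known. Of these, 30 were among the 17924 genes in the table and 28 were among the 16251 genes tested. C1s2, Masp2, Colec11, C5, Cfi and Vtn were not analysed here, and C6 and C7 were left out of the test by a filter on low values.

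The cells came from C57BL/6J mice in which Cre is driven by the Pdgfra promoter, which is active in the preadipocyte lineage. CTL mice were Nelfb fl/wt or Nelfb wt/wt with Pdgfra-Cre+, and Nelfb-/- mice were Nelfb fl/fl with Pdgfra-Cre+, so that both groups carried Cre. Fibroblasts were isolated from the dorsal dermis of newborn (P0) pups and kept in adipocyte differentiation medium for 14 days, and RNA was sequenced from 3 biological replicates of each group. No sorting of the cells is described, so that cells outside the Pdgfra lineage could be present and would keep Nelfb. Nelfb encodes a subunit of the negative elongation factor, which holds RNA polymerase II in a paused state shortly after initiation.

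Complement is a cascade of plasma and tissue proteins that marks microbes, dying cells and debris for removal. C1q with its proteases C1r and C1s starts the classical pathway, and lectins with their own proteases start the lectin pathway. The alternative pathway, with factors B and D and properdin, amplifies the product on a surface. All 3 pathways meet at the cleavage of C3, after which C5 to C9 build a pore in the membrane, while receptors sense the fragments and regulators keep host cells from attack. In the body the liver makes most complement proteins of the plasma, whereas macrophages are a main source of C1q and of properdin, and adipocytes release factor D (adipsin), factor B and C3.

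Values are in CPM (reads on a gene for each 1e+06 reads counted), and wherever a gene is given 3 values per group these stand in the order of replicates 1, 2 and 3. The depth, estimated from the lowest values, lay between 17.1 M and 29.3 M reads (M, 1e+06) per library, at which 3 reads are worth 0.102 to 0.175 CPM. A log2 fold change sets Nelfb-/- against CTL cells on the log2(value + 1 read) scale and comes with its standard error (SE), and every adjusted p is limma's, over the whole table, except that ranges over the alternatives also hold a gene by gene fit without moderated variances. To be called upregulated or downregulated, a gene had to change by 2-fold or more with an adjusted p no higher than 0.05. Nelfb itself stood at 17.3, 19.6 and 22.3 CPM in CTL cells and at 5.50, 3.90 and 5.55 CPM in Nelfb-/- cells (log2 fold change -1.99, SE 0.22, adjusted p = 0.0050). In a principal component analysis over all genes tested, CTL replicate 3 lay apart from the other CTL libraries and Nelfb-/- replicate 1 apart from the other Nelfb-/- libraries, so that counts of called genes by limma are also given without these libraries.

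Complement genes moved in opposite directions. The C1q subunits, the macrophage receptor Vsig4, the anaphylatoxin receptors C3ar1 and C5ar1, properdin, Colec12 and Cd55 were upregulated in Nelfb-/- cells. C3, the C1r gene C1ra, its relative C1rl, and C8g were downregulated. Of the 28 genes tested, 9 were upregulated, against 7.58% of all genes tested (1232 genes). A further 4 were downregulated, against 3.64% of all genes tested (592 genes), and 15 were not called. At an unadjusted p under 0.05, 19.6% of all genes tested were higher and 12.9% lower in Nelfb-/- cells. After quantile normalization, 1014 of all genes tested were upregulated and 834 downregulated, and the complement genes then numbered 9 and 4. All Nelfb-/- libraries lay above all CTL libraries at 13 of the 28 genes, against 22.0% of all genes tested, and below them at 8, against 16.1%. The median log2 fold change was 0.19 over the 28 genes, all of which had a mean of 10 reads or more in each group, and 0.07 over all genes tested. Without the libraries that stood apart, 11 complement genes were upregulated and 5 downregulated, while 17.7% and 9.38% of all genes tested were so called. Leaving out CTL replicate 2 or Nelfb-/- replicate 3 left 3 upregulated genes, where 3.29% and 1.79% of all genes tested were upregulated. Leaving out CTL replicate 1, CTL replicate 2, Nelfb-/- replicate 2 or Nelfb-/- replicate 3 left 1 downregulated gene, C3, where 0.839% to 2% of all genes tested were downregulated. C3, Vsig4 and Cd55 kept their call under each of the 16 alternatives tried.

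**Figure D1:**
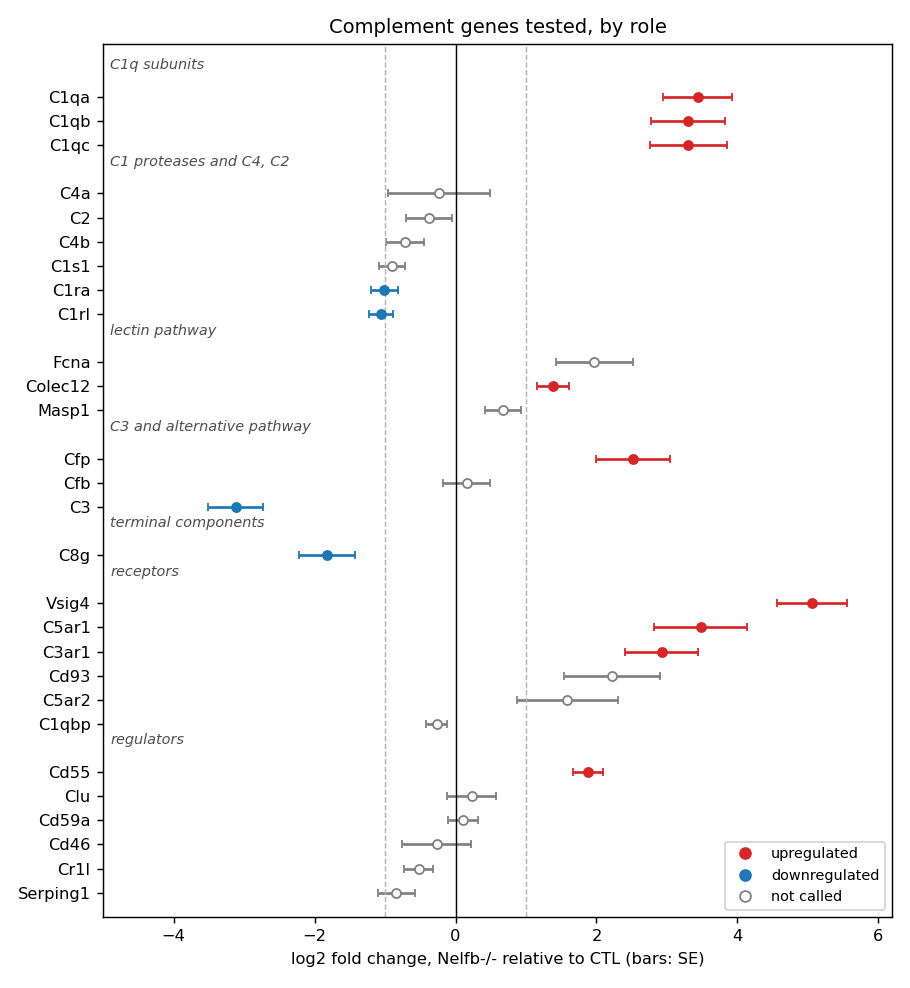
Log2 fold change (Nelfb-/- relative to CTL, x axis) of the 28 complement genes tested, grouped by role, with bars for the SE. Filled points mark the 9 upregulated and 4 downregulated genes, open points the 15 genes not called, and dashed lines a 2-fold change. The C1q subunits lie between 3.30 and 3.43, Vsig4 lies highest at 5.06 and C3 lowest at -3.12.

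C1q is the recognition molecule of the classical pathway, built from 3 kinds of chain that are encoded by neighbouring genes on chromosome 4. All 3 genes rose about 10-fold in Nelfb-/- cells, and they did so together in each library. C1qa (ENSMUSG00000036887, GRCm38 chromosome 4 from 136895917 to 136898803, minus strand) stood at 67.5, 37.7 and 26.9 CPM in CTL cells and at 779, 257 and 432 CPM in Nelfb-/- cells. The lowest Nelfb-/- library was thus above the highest CTL library, while the libraries of each group also differed widely from each other. C1qa had a log2 fold change of 3.43 (SE 0.48, adjusted p = 0.0089). C1qb (ENSMUSG00000036905, chromosome 4 from 136880129 to 136886187, minus strand) stood at 69.4, 37.0 and 24.4 CPM in CTL cells and at 720, 225 and 371 CPM in Nelfb-/- cells (log2 fold change 3.30, SE 0.52, adjusted p = 0.0119). C1qc (ENSMUSG00000036896, chromosome 4 from 136889804 to 136893065, minus strand) stood at 79.4, 39.1 and 26.5 CPM in CTL cells and at 806, 239 and 408 CPM in Nelfb-/- cells (log2 fold change 3.30, SE 0.55, adjusted p = 0.0131).

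The chains stayed close to a fixed proportion, since C1qb was 0.859 to 1.03 times C1qa and C1qc was 0.930 to 1.18 times C1qa across the 6 libraries. No stretch of 50 bases is shared between the transcripts of the 3 genes in the annotation. Without CTL replicate 2 the adjusted p was 0.0511 for C1qb and 0.0564 for C1qc, and without Nelfb-/- replicate 3 it was 0.0572 and 0.0631, so that these calls were lost. Over the 16 alternatives the adjusted p of C1qb ranged from 0.00126 to 0.0664 and that of C1qc from 0.00189 to 0.0708, and the log2 fold change stayed above 2.4 for each.

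The sequences upstream of C1qb and C1qc are shown because these neighbours moved together. They are the stretches before the first exon in RefSeq promoter windows (GRCm38.p6, 5′ to 3′ on the minus strand), chr4:136886201-136886450 for C1qb and chr4:136893066-136893164 for C1qc. Motifs of PU.1, C/EBP, STAT, interferon response factors and NF-kB were searched on both strands of whole windows. The whole C1qc window also held a match to the NF-kB consensus, from -41 to -32 and so inside the exon. In C1qc the capitals mark a match to GAGGAAG, the PU.1 motif (PU.1 is a transcription factor of myeloid cells), read on the opposite strand, and C1qb held no match to any motif searched in its window.
C1qb: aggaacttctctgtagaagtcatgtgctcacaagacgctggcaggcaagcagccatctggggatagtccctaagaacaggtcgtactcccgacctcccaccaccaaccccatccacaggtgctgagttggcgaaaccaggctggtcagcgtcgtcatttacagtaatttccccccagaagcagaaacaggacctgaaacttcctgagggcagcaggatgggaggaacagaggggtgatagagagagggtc
C1qc: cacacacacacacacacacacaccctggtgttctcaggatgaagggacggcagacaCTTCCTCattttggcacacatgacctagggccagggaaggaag

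Macrophage markers rose with these genes. Of 20 markers in the table, 19 were tested and 16 were upregulated and 0 downregulated by limma (17 and 0 at an unadjusted p under 0.05, and 16 and 0 without the libraries that stood apart). A mean of 10 reads or more in each group was reached by 18 of the 19. Among all genes tested, 7.58% were upregulated and 3.64% downregulated (19.6% and 12.9% at an unadjusted p under 0.05, and 17.7% and 9.38% without those libraries). The 20 markers summed to 1302, 675 and 335 CPM in CTL cells and to 9301, 2711 and 4563 CPM in Nelfb-/- cells, a 7.17-fold difference of the means. The receptor gene Csf1r, which defines the lineage, stood at 12.3 to 22.6 CPM in CTL cells and at 87.0 to 206 CPM in Nelfb-/- cells, and Cx3cr1 was at 0.938 CPM or less in every library. In this bulk RNA, more cells of a type and more RNA per cell cannot be told apart. The summed C1q subunits amounted to 16.6%, 16.9% and 23.2% of the macrophage marker sum in CTL cells and to 24.8%, 26.6% and 26.5% in Nelfb-/- cells, so that the groups did not overlap but differed only 1.38-fold on this scale. The libraries ranked alike for C1qa, C1qb, C1qc, Fcna, Cfp, C3ar1, C5ar1, Cd93, Cd46, Cd55 and the macrophage sum in each group, which was so for 10 of the 30 genes in the table. The share of all genes with this order was not counted. The part of the macrophage markers in the changes of complement genes was not tested. Endothelial markers, which share Cd93 with myeloid cells, summed to 7.85 to 12.1 CPM in CTL cells and to 9.20 to 23.5 CPM in Nelfb-/- cells. Of the 6 tested, 1 (Emcn, log2 fold change 3.54, SE 0.80, adjusted p = 0.0319) was upregulated and 0 downregulated by limma (2 and 0 at an unadjusted p under 0.05, and 2 and 2 without the libraries that stood apart). Emcn stood at 0.225, 0.0933 and 0 CPM in CTL cells. Its CTL mean of 0.106 CPM was under the filter limit of 0.449 CPM, so that Emcn entered the test only through the Nelfb-/- group and its fold change is uncertain. Pecam1 was higher in every Nelfb-/- library (log2 fold change 2.32, SE 0.62, adjusted p = 0.0505).

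**Figure D2:**
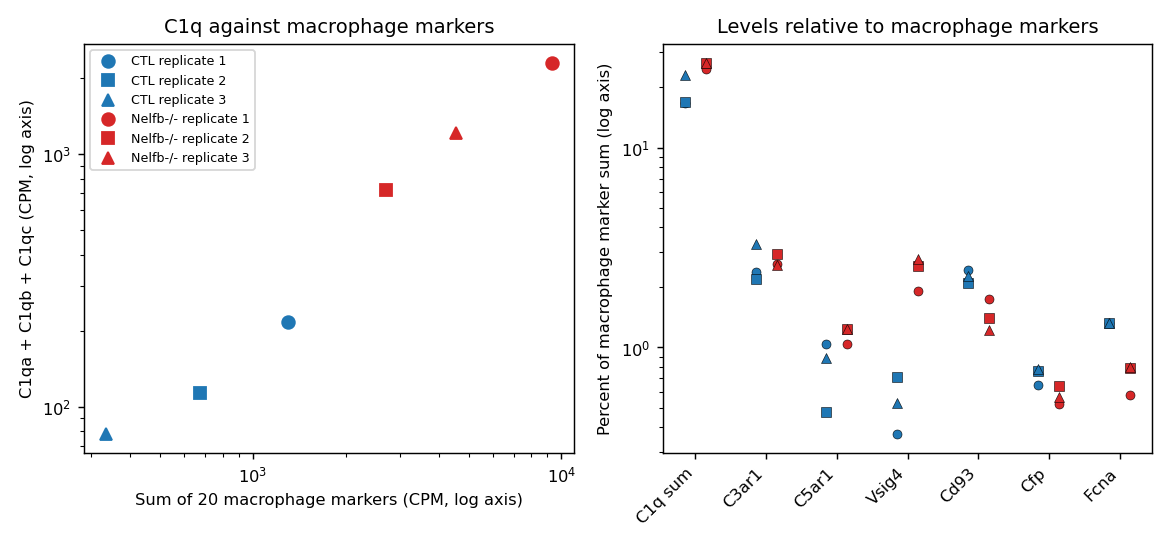
Left, the summed level of C1qa, C1qb and C1qc against the sum of 20 macrophage markers in each of the 6 libraries (CPM, log axes). Right, C1q and 6 other complement genes as a percent of the macrophage marker sum (log axis). C1q follows the marker sum across libraries, and relative to that sum Vsig4 lies higher in Nelfb-/- cells while Cd93, Cfp and Fcna lie lower.

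C1ra, which encodes a protease of C1, and the related C1rl were downregulated, unlike C1q. C1r and C1s are the serine proteases that C1q carries: C1r activates C1s, and C1s cleaves C4 and C2, whose fragments form the C3 convertase. Of the 6 genes tested for the C1 proteases, C4 and C2, 0 were upregulated and 2 were downregulated by limma, against 7.58% and 3.64% of all genes tested. At an unadjusted p under 0.05, 0 were higher and 4 lower, against 19.6% and 12.9%. Without the libraries that stood apart, 0 were upregulated and 3 downregulated, against 17.7% and 9.38%. The median log2 fold change of the 6 genes was -0.80. C1ra (ENSMUSG00000055172, chromosome 6 from 124512405 to 124523443, plus strand) stood at 108, 80.2 and 82.5 CPM in CTL cells and at 54.8, 40.8 and 38.9 CPM in Nelfb-/- cells (log2 fold change -1.01, SE 0.19, adjusted p = 0.0194). C1rl (ENSMUSG00000038527, chromosome 6 from 124493113 to 124510643, plus strand), which encodes a protease related to C1r, stood at 33.2, 28.8 and 29.7 CPM in CTL cells and at 17.7, 13.2 and 13.4 CPM in Nelfb-/- cells (log2 fold change -1.06, SE 0.17, adjusted p = 0.0123). The groups were well apart for each gene, at close to the limit of 2-fold. C1s1 stood at 139, 107 and 100.1 CPM in CTL cells and at 71.5, 61.2 and 52.6 CPM in Nelfb-/- cells. It passed the test on p but was under the 2-fold limit (log2 fold change -0.90, SE 0.19, adjusted p = 0.0247), and it was called without Nelfb-/- replicate 1 (-1.01) and without the libraries that stood apart (-1.10).

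The calls of C1ra and C1rl were lost when any of 4 libraries was left out, although the log2 fold change stayed between -1.16 and -0.87 for C1ra and between -1.20 and -0.98 for C1rl. The adjusted p of C1ra lay between 0.0588 and 0.0906 without CTL replicate 1, CTL replicate 2, Nelfb-/- replicate 2 or Nelfb-/- replicate 3, with a range of 0.000786 to 0.0906 over the 16 alternatives. That of C1rl was 0.0578, 0.0512 and 0.0681 without CTL replicate 1, CTL replicate 2 and Nelfb-/- replicate 3, and without Nelfb-/- replicate 2 its log2 fold change of -0.98 was under the limit. Of the 50-base stretches of C1ra transcripts, 48.0% also occur in C1rb, and 21.8% of those of C1s1 occur in C1s2, so that reads of these pairs may have been split in counting. C1rl and C1s1 overlap antisense genes (Gm44096 and Gm16567), and it is not stated whether strand was used in counting. Relative to the adipocyte marker sum, C1ra, C1rl and C1s1 overlapped between the groups. Relative to the fibroblast marker sum they overlapped as well, with C1ra at 1.99%, 1.71% and 0.462% in CTL cells and at 0.595%, 0.125% and 0.1096% in Nelfb-/- cells.

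C4b, C2 and C4a were not called. C4b, the mouse gene for C4, stood at 102, 60.3 and 72.8 CPM in CTL cells and at 63.9, 39.3 and 40.6 CPM in Nelfb-/- cells, with overlapping groups (log2 fold change -0.71, SE 0.27, adjusted p = 0.124). C2 stood at 27.2, 18.5 and 26.2 CPM in CTL cells and at 29.1, 13.2 and 15.6 CPM in Nelfb-/- cells (log2 fold change -0.38, SE 0.33, adjusted p = 0.470), and it overlaps Gm20547 on the same strand. C4a, the sex-limited copy of C4, was low at 0.307 to 1.52 CPM and overlapped between the groups (log2 fold change -0.23, SE 0.73, adjusted p = 0.856). It shares 30.6% of its 50-base stretches with C4b. Xist stood at 771, 29.8 and 15.3 CPM in CTL cells and at 0.427, 0.116 and 0.204 CPM in Nelfb-/- cells. The summed Y-linked genes stood at 7.76, 264 and 206 CPM in CTL cells and at 262, 162 and 189 CPM in Nelfb-/- cells. Every CTL library was thus above every Nelfb-/- library in Xist, and CTL replicate 1 was lowest in the Y-linked genes. What part sex has in C4a or in the X-linked Vsig4 and Cfp was not tested.

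C3, the central component on which all pathways converge, showed the largest decrease among the complement genes. C3 (ENSMUSG00000024164, chromosome 17 from 57203970 to 57228136, minus strand) stood at 1222, 1248 and 768 CPM in CTL cells and at 212, 85.9 and 97.3 CPM in Nelfb-/- cells. Every CTL library was above every Nelfb-/- library, and the means differed 8.18-fold. The log2 fold change was -3.12 (SE 0.39, adjusted p = 0.0064) and ranged from -3.53 to -2.87 with single libraries removed. Adipocyte markers summed to 40197, 36701 and 23978 CPM in CTL cells and to 15941, 24242 and 20379 CPM in Nelfb-/- cells, with overlap between the groups. Of 10 such markers, 2 were downregulated and 1 was upregulated (4 and 1 without the libraries that stood apart). C3 amounted to 3.04%, 3.40% and 3.20% of the adipocyte marker sum in CTL cells and to 1.33%, 0.354% and 0.478% in Nelfb-/- cells, and was thus 4.45-fold lower on that scale as well. Fibroblast markers summed to 5404, 4703 and 17845 CPM in CTL cells and to 9216, 32765 and 35525 CPM in Nelfb-/- cells. By limma 0 of these 10 was called, although 6 were higher in Nelfb-/- cells at an unadjusted p under 0.05. Without the libraries that stood apart, 8 were upregulated. Among all genes tested, 7.58% were upregulated and 3.64% downregulated, and 19.6% were higher at an unadjusted p under 0.05. Without those libraries, 17.7% were upregulated and 9.38% downregulated. What part these markers have in the change of C3 was not tested.

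Factor B (Cfb), the protease of the alternative pathway convertase, did not follow C3. It stood at 10.9, 8.27 and 19.4 CPM in CTL cells and at 15.8, 13.0 and 11.8 CPM in Nelfb-/- cells, with overlapping groups (log2 fold change 0.16, SE 0.33, adjusted p = 0.777), and it too overlaps Gm20547. Properdin (Cfp, ENSMUSG00000001128), which stabilises that convertase, rose from 8.43, 5.13 and 2.62 CPM in CTL cells to 48.7, 17.5 and 26.0 CPM in Nelfb-/- cells (log2 fold change 2.52, SE 0.52, adjusted p = 0.0249). The adjusted p of Cfp was 0.0819 without CTL replicate 2 (log2 fold change 2.56) and 0.0894 without Nelfb-/- replicate 3 (2.58), and ranged from 0.0032 to 0.0984 over the alternatives. As a percent of the macrophage marker sum, Cfp was lower in Nelfb-/- cells (0.524% to 0.644%) than in CTL cells (0.648% to 0.781%).

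The sequences upstream of C3 and of C1rl are shown because these downregulated genes each held a match to the C/EBP motif TTGCNNAA, which is bound by transcription factors of adipocytes, liver and myeloid cells. They are RefSeq promoter windows (GRCm38.p6, 5′ to 3′) at chr17:57228137-57228386 on the minus strand for C3 and at chr6:124492863-124493112 on the plus strand for C1rl, with the match in capitals. It lay from -45 to -38 relative to the RefSeq start in C3 and, on the opposite strand, from -243 to -236 in C1rl. The windows of C1ra and C8g, which were also downregulated, held no match to any motif searched.
C3: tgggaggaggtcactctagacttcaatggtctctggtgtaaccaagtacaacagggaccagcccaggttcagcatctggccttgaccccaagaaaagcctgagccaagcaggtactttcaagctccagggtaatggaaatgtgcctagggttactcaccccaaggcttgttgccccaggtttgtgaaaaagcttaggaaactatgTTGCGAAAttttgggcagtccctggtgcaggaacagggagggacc
C1rl: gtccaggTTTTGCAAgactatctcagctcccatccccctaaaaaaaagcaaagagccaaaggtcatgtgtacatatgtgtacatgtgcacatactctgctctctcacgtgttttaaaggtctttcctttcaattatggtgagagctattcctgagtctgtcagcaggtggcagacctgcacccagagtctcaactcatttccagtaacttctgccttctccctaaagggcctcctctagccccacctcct

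Matches to the motifs were counted over all complement genes with such a window. RefSeq windows of 250 bases before the start were found for 24 of the 36 listed genes, with 27 windows in all. The C/EBP motif was in 4 of these 27 windows, against 9.56% of all 32851 windows, and besides C3 and C1rl these belonged to C1s1, which was not called, and to C5ar2, which was higher in each Nelfb-/- library and not called. The PU.1 motif was in 3, against 10.6%. The STAT motif TTCNNNGAA was in 3, against 7.02%, the interferon response core GAAANNGAA was in 3, against 7.13%, and the NF-kB consensus was in 1, against 3.90%. A match in a window is a match of letters and does not show binding.

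The lectin pathway genes in the table all lay higher in Nelfb-/- cells in every library, as did 22.0% of all genes tested, although only 1 of 3 was upregulated, against 7.58% of all genes tested. At an unadjusted p under 0.05 all 3 were higher, against 19.6%, and without the libraries that stood apart 2 were upregulated, against 17.7%. Colec12 (ENSMUSG00000036103, chromosome 18 from 9707595 to 9882644), a scavenger receptor with a lectin domain, rose from 129, 119 and 135 CPM in CTL cells to 458, 268 and 299 CPM in Nelfb-/- cells (log2 fold change 1.38, SE 0.22, adjusted p = 0.0121). The CTL libraries lay within a narrow range, and the lowest Nelfb-/- library was well above it. The log2 fold change of Colec12 was 1.39, 1.33 and 1.46 and its adjusted p 0.0511, 0.0566 and 0.0558 without CTL replicate 1, CTL replicate 2 and Nelfb-/- replicate 3, within a range of 0.000183 to 0.0566 over the alternatives. Colec12 was lower in Nelfb-/- cells as a percent of the macrophage marker sum (4.92% to 9.90%, against 9.91% to 40.2%). It was higher in Nelfb-/- cells as a percent of the adipocyte marker sum (1.11% to 2.87%, against 0.321% to 0.562%), and it overlapped between the groups relative to the fibroblast marker sum. Fcna, which encodes ficolin A, a lectin of macrophages, stood at 17.2, 8.96 and 4.45 CPM in CTL cells and at 53.5, 21.5 and 36.4 CPM in Nelfb-/- cells (log2 fold change 1.97, SE 0.54, adjusted p = 0.0555). Fcna overlaps the antisense gene Fcnaos. It was called without CTL replicate 1 (adjusted p = 0.0496), without the libraries that stood apart (0.0305) and with the replicate number as a block (0.0193). Its adjusted p ranged from 0.0193 to 0.166 over the alternatives. Masp1, a protease of the pathway, stood at 18.8, 29.7 and 29.1 CPM in CTL cells and at 32.4, 40.3 and 50.5 CPM in Nelfb-/- cells (log2 fold change 0.67, SE 0.25, adjusted p = 0.116).

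The terminal components in the table were low in these cultures, at 3.13 CPM or less in every library. C8g, which encodes the gamma chain of C8, stood at 2.16, 3.13 and 2.41 CPM in CTL cells and at 1.09, 0.640 and 0.449 CPM in Nelfb-/- cells (log2 fold change -1.83, SE 0.40, adjusted p = 0.0286). The groups were apart, but the adjusted p lay between 0.0833 and 0.114, with log2 fold changes of -1.94 to -1.55, without CTL replicate 1, CTL replicate 2, Nelfb-/- replicate 2 or Nelfb-/- replicate 3, and between 0.00296 and 0.114 over the alternatives. C8g overlaps Fbxw5 on the opposite strand. C6 stood at 0.140 to 0.226 CPM in CTL cells and at 0.286 to 0.711 CPM in Nelfb-/- cells. C7 was at or under the floor of 3 reads in each CTL library and at 0.237, 0.349 and 0.449 CPM in Nelfb-/- cells. The Nelfb-/- mean of C7 was 2.74-fold the mean floor of the CTL libraries. With no filter on low values, C7 was called upregulated (limma, adjusted p = 0.0272) and C6 was not (log2 fold change 1.12, SE 0.49, adjusted p = 0.175), which made 10 upregulated complement genes, against 7.58% of all genes in that setting too.

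Several receptors for complement fragments rose in Nelfb-/- cells, with a median log2 fold change of 2.57 over the 6 tested. By limma 3 were upregulated and 0 downregulated, against 7.58% and 3.64% of all genes tested. At an unadjusted p under 0.05, 4 were higher and 0 lower, against 19.6% and 12.9% of all genes tested, and without the libraries that stood apart 4 were upregulated and 0 downregulated, against 17.7% and 9.38%. Vsig4 (ENSMUSG00000044206, chromosome X from 96247203 to 96293438, minus strand), the receptor of tissue macrophages that binds C3b and iC3b, had the largest change of all complement genes tested. It stood at 4.78, 4.81 and 1.77 CPM in CTL cells and at 179, 69.5 and 126 CPM in Nelfb-/- cells. The means differed 33.0-fold, with a log2 fold change of 5.06 (SE 0.50, adjusted p = 0.0041) that ranged from 4.59 to 5.43 with single libraries removed. Vsig4 also rose against the macrophage markers, from 0.367%, 0.712% and 0.528% of their sum in CTL cells to 1.92%, 2.56% and 2.77% in Nelfb-/- cells, a 4.51-fold difference. The sequence upstream of Vsig4, shown because of the size of its change, held no match to the motifs searched (RefSeq, GRCm38.p6, chrX:96293439-96293688, minus strand, 5′ to 3′).
Vsig4: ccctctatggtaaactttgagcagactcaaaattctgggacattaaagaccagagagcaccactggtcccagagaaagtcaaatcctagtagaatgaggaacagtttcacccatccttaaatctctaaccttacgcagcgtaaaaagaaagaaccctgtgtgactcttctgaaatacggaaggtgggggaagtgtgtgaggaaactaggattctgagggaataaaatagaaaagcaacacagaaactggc

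C3ar1 and C5ar1 are the receptors of the anaphylatoxins C3a and C5a, the small fragments that attract and activate myeloid cells, and they rose as well. C3ar1 stood at 31.1, 14.9 and 11.0 CPM in CTL cells and at 242, 79.3 and 118 CPM in Nelfb-/- cells (log2 fold change 2.93, SE 0.52, adjusted p = 0.0159). C5ar1 stood at 13.5, 3.22 and 2.96 CPM in CTL cells and at 97.2, 33.7 and 56.2 CPM in Nelfb-/- cells (log2 fold change 3.48, SE 0.66, adjusted p = 0.0191). Both calls were lost without CTL replicate 2 (log2 fold changes 2.82 and 3.16, adjusted p = 0.0636 and 0.0733) and without Nelfb-/- replicate 3 (3.01 and 3.49, adjusted p = 0.0663 and 0.0786), within ranges of 0.00263 to 0.0777 and 0.00361 to 0.0873 over the alternatives. As a percent of the macrophage marker sum, C3ar1 overlapped between the groups (2.21% to 3.28% in CTL cells, 2.58% to 2.92% in Nelfb-/- cells), and C5ar1 lay at 0.477% to 1.04% in CTL cells and at 1.04% to 1.24% in Nelfb-/- cells. C5ar2, the second C5a receptor, was low at 0.767, 0.560 and 0.170 CPM in CTL cells and at 3.18, 0.990 and 0.816 CPM in Nelfb-/- cells (log2 fold change 1.59, SE 0.72, adjusted p = 0.181).

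Cd93 and C1qbp, named for their relation to C1q, were not called. Cd93, a surface protein of myeloid and endothelial cells that takes part in the uptake of dying cells, stood at 31.7, 14.2 and 7.65 CPM in CTL cells and at 163, 38.2 and 56.1 CPM in Nelfb-/- cells. All Nelfb-/- libraries were above all CTL libraries, but the spread was wide (log2 fold change 2.22, SE 0.68, adjusted p = 0.0743). Cd93 was called without the libraries that stood apart (log2 fold change 1.12, adjusted p = 0.0411) and with the replicate number as a block (adjusted p = 0.00828). Its adjusted p ranged from 0.00828 to 0.193 over the alternatives. C1qbp, a mostly mitochondrial protein that also binds C1q, stood at 82.3, 83.9 and 108 CPM in CTL cells and at 72.5, 79.7 and 74.3 CPM in Nelfb-/- cells (log2 fold change -0.27, SE 0.15, adjusted p = 0.272).

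**Figure D3:**
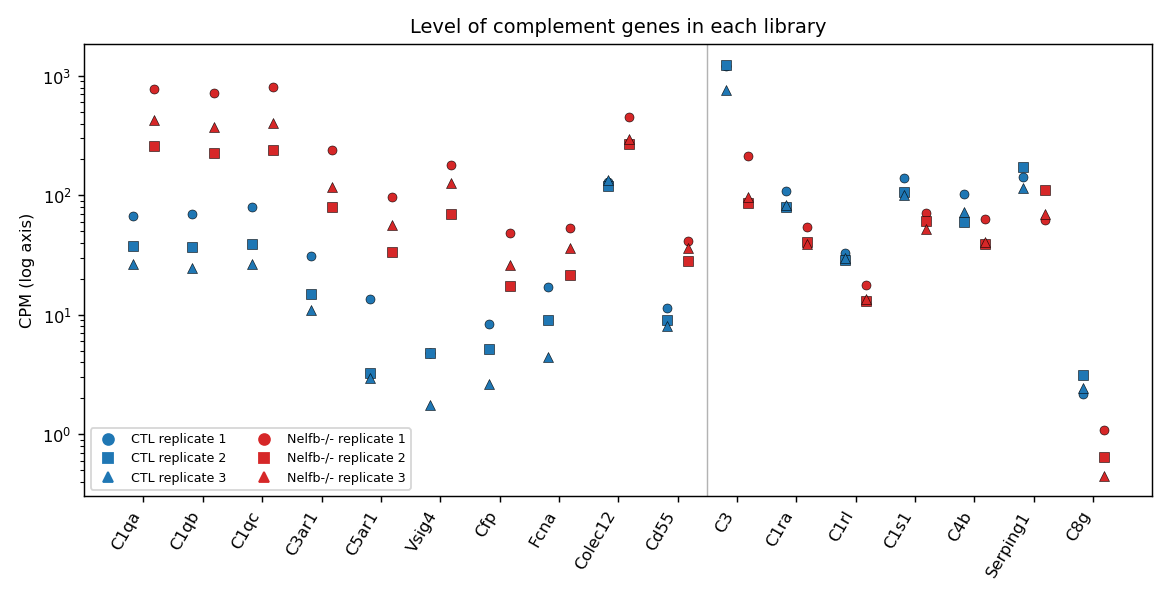
Level of 17 complement genes in each library (CPM, log axis), with CTL in blue, Nelfb-/- in red and a marker shape for each replicate. Left of the line are genes with all Nelfb-/- libraries above all CTL libraries, led by C1q and Vsig4, and right of it genes that were lower in Nelfb-/- cells, led by C3. The groups overlap for C4b, and the points of CTL replicates 1 and 2 coincide for C3 and Vsig4.

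Of the regulators that protect host cells, only Cd55 was upregulated among the 6 tested by limma, and 0 were downregulated (1 and 2 at an unadjusted p under 0.05, and 1 and 0 without the libraries that stood apart). Of all genes tested, 7.58% were upregulated and 3.64% downregulated (19.6% and 12.9% at an unadjusted p under 0.05, and 17.7% and 9.38% without those libraries). Cd55 (ENSMUSG00000026399, chromosome 1 from 130439027 to 130462744, minus strand), the decay accelerating factor that takes C3 convertases apart on the cell surface, rose from 11.4, 9.05 and 8.09 CPM in CTL cells to 41.2, 28.2 and 36.4 CPM in Nelfb-/- cells. The libraries of each group lay close together, and the lowest Nelfb-/- library was far above the highest CTL library. The log2 fold change was 1.88 (SE 0.21, adjusted p = 0.0055) and ranged from 1.76 to 2.03 with single libraries removed. Cd55 overlaps the antisense gene Gm16083. As a percent of the macrophage marker sum, Cd55 overlapped between the groups. The upstream sequence of Cd55, shown because its call held throughout, held no match to the motifs searched (RefSeq, GRCm38.p6, chr1:130462745-130462994, minus strand, 5′ to 3′).
Cd55: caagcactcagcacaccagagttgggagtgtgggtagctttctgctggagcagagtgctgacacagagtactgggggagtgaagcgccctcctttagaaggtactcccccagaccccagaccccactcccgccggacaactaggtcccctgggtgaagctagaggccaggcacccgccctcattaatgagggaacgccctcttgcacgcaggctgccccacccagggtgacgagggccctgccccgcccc

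Serping1, which encodes the C1 inhibitor that blocks C1r and C1s, was lower in every Nelfb-/- library without passing the test. It stood at 142, 174 and 114 CPM in CTL cells and at 62.8, 111 and 70.3 CPM in Nelfb-/- cells (log2 fold change -0.84, SE 0.26, adjusted p = 0.0772). Cr1l, the mouse Crry protein that controls C3 and C4 fragments on cells, stood at 33.3, 33.8 and 52.1 CPM in CTL cells and at 26.6, 24.8 and 29.7 CPM in Nelfb-/- cells (log2 fold change -0.52, SE 0.21, adjusted p = 0.140). Cd59a, which blocks the membrane pore, stood at 19.7 to 25.6 CPM in CTL cells and at 18.6 to 29.2 CPM in Nelfb-/- cells (log2 fold change 0.11, SE 0.21, adjusted p = 0.757). The fluid phase regulator clusterin (Clu) stood at 2.99 to 6.63 CPM in CTL cells and at 5.07 to 6.81 CPM in Nelfb-/- cells (log2 fold change 0.23, SE 0.35, adjusted p = 0.686). Cd46, a cofactor for the cleavage of C3b, was low at 0.739 to 1.89 CPM in CTL cells and at 0.622 to 1.46 CPM in Nelfb-/- cells (log2 fold change -0.26, SE 0.49, adjusted p = 0.745). The last 3 genes overlapped between the groups.

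Other genes of the pathway were taken from a second list of 29 complement genes, of which 12 were in the table and 9 were tested. Of these, 5 were upregulated and 0 downregulated by limma (6 and 1 at an unadjusted p under 0.05), and 4 did not pass the test. Of all genes tested, 7.58% were upregulated and 3.64% downregulated (19.6% and 12.9% at an unadjusted p under 0.05). Itgam and Itgax, the alpha chains of complement receptors 3 and 4, rose by a log2 fold change of 2.48 (SE 0.62, adjusted p = 0.0416) and 3.38 (SE 0.86, adjusted p = 0.0439). Itgax stood at 0.330 CPM or less in CTL cells, with a mean of 0.133 CPM. That is under the filter limit of 0.449 CPM, so that Itgax entered the test only through the Nelfb-/- group and its fold change is uncertain. The other 8 genes tested had a mean of 10 reads or more in each group. Csmd1, a membrane inhibitor, and Thbd, which encodes thrombomodulin, rose by 2.13 (SE 0.37, adjusted p = 0.0157) and 1.38 (SE 0.29, adjusted p = 0.0255) on the same scale. Without the libraries that stood apart, 10 genes of the list were tested, of which 7 were upregulated and 1 downregulated, against 17.7% and 9.38% of all genes tested, and 1 to 5 were called with single libraries removed. There were 2 calls without CTL replicate 1, CTL replicate 2 or Nelfb-/- replicate 1, and 1 call without Nelfb-/- replicate 2 or Nelfb-/- replicate 3.

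Factor D (Cfd), the adipocyte protease that cleaves factor B, was split within the CTL group. It stood at 982, 958 and 124 CPM in CTL cells and at 207, 98.6 and 83.9 CPM in Nelfb-/- cells, and CTL replicate 3 fell among the Nelfb-/- libraries (log2 fold change -2.03, SE 0.84, adjusted p = 0.152). C3 in that library stayed at 768 CPM, above every Nelfb-/- library.

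Levels were compared between genes per kb of exon, since CPM alone favours long transcripts. In CTL cells C3 ranked first of the 30 genes at 210 ± 52.5 CPM per kb (SD, n = 3), followed by Serping1 at 61.7 ± 12.9, C1qa at 42.3 ± 20.2, C1qb at 40.1 ± 21.3 and C1s1 at 36.9 ± 6.69. C3 lay above the spread of the next gene, whereas C1qa, C1qb and C1s1 were within each other's spread. In Nelfb-/- cells C1qa ranked first at 471 ± 256 CPM per kb (SD, n = 3), followed by C1qb at 403 ± 234, C1qc at 251 ± 151, Vsig4 at 84.2 ± 36.9 and Colec12 at 39.2 ± 11.6. The C1q chains were within each other's spread, and C3 ranked at 10 with 25.6 ± 13.6 CPM per kb. C4b ranked at 10 in CTL cells and at 17 in Nelfb-/- cells, and Cd55 at 23 and 18.

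**Figure D4:**
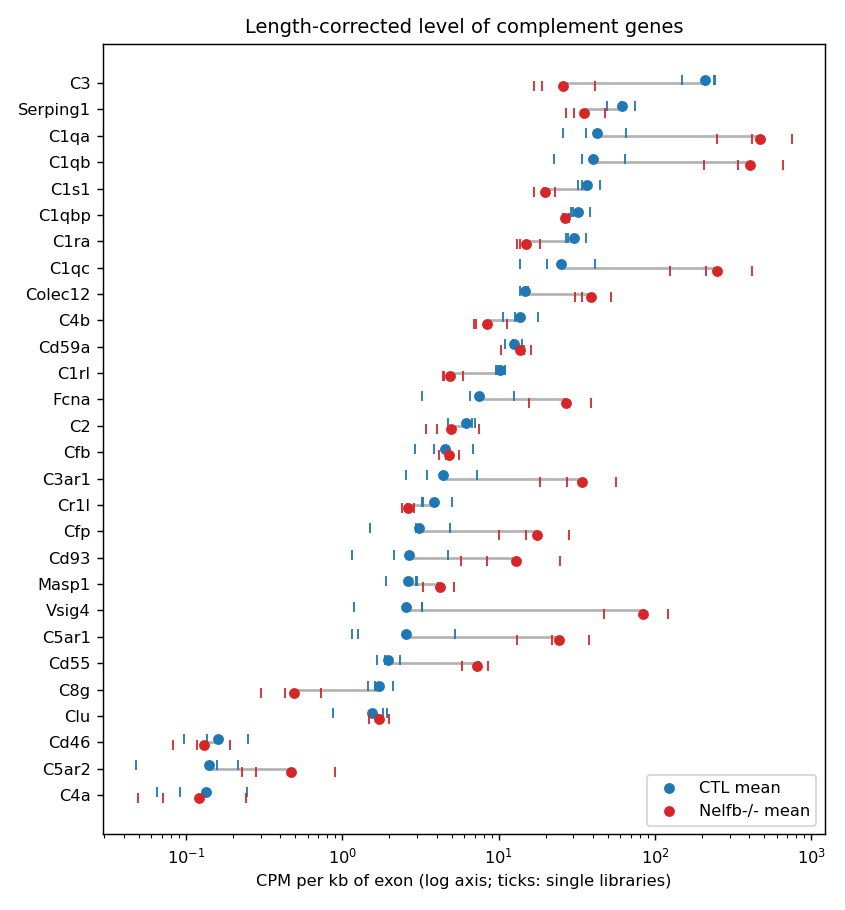
Length-corrected level of 28 complement genes (CPM per kb of exon, log axis), ordered by the CTL mean, with points for group means and ticks for single libraries. C3 leads in CTL cells at 210 CPM per kb and C1qa in Nelfb-/- cells at 471 CPM per kb. C6 and C7 are left out because their CTL means were at most 0.1 CPM per kb.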

How the data were processed

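RNA-seq was available for 3 CTL and 3 Nelfb-/- samples, and groups were taken from the genotype given for each sample. Per the labels, reads were processed with STAR 2.7 and Partek 9.0.20.0202 on mm10, while the counting and its use of strand are not given in the sources used here. The values deposited by the authors are CPM with an offset of 0.0001, since each column summed to 1e+06 once the offset was removed. The lowest values rose in steps of about 1 read, which gave the depth, but only 72.9% to 75.7% of values standing for 20 reads or fewer came out whole within 0.05 reads, so that no count test was run. All values were scaled to 1 depth of 22.3 M reads (M, 1e+06), genes averaging under 10 reads (0.449 CPM) were dropped, and log2(value + 1) was tested with limma 3.58.1 (R 4.3.3) with an abundance trend and Benjamini-Hochberg adjustment. The script was tested on simulated data.

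An exact permutation test of a single gene with 3 against 3 samples cannot give a two-sided p below 0.1 and was not used. The samples are called biological replicates, but whether each is a separate animal is not stated, so that p measures the spread between these cultures. Positions of all 30 genes matched GENCODE vM21 (GRCm38) once the end in the table was read as 1 past the last base, and overlapping genes and exon lengths came from that annotation. All listed members were named, and from the second list each gene called, with Cfd whatever its call. A gene of that list is counted but not reported here. The members, lists, tests and marker genes were chosen with earlier results of these data known. The alternatives were other pseudocounts, filters, scalings, variance models, thresholds, a replicate term and leaving out each library. Leaving out CTL replicate 3 and Nelfb-/- replicate 1 together was chosen after seeing the data.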

Additional observations from a re-analysis of the deposited data

How the results depend on the processing

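Under gene by gene ANOVA without moderation, 2 complement genes were upregulated, 2 were downregulated and 0 of the second list was called (5 at an unadjusted p under 0.05), against 9, 4 and 5 with limma. That setting called 438 of all genes upregulated and 246 downregulated. With single libraries removed, the upregulated complement genes numbered 3 to 9, the downregulated ones 1 to 5 and the called genes of the second list 1 to 5, and without the libraries that stood apart the second list had 8. Of 448 values (28 genes under 16 alternatives), 397 kept their direction and call, 34 lost the call, 7 gained one and 10 changed sign, none of these from a called gene. The sign of the log2 fold change turned with a library left out for C4a (without CTL replicate 2 or Nelfb-/- replicate 2, range -0.864 to 0.293), Cfb (without CTL replicate 2, -0.112 to 0.501), Cd46 (without CTL replicate 1 or Nelfb-/- replicate 2, -0.574 to 0.0935), Cd59a (without Nelfb-/- replicate 2, -0.0247 to 0.2996) and Clu (without CTL replicate 3, -0.132 to 0.436). It also turned for Cfb (-0.0103) and Clu (-0.0332) under quantile normalization and for Clu (-0.0301) without the libraries that stood apart. The cause was not tested. Quantile normalization moved the median of all genes from 0.07 to -0.07 and median-of-ratios scaling moved it to -0.001.

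With the replicate number as a block, 11 complement genes were upregulated, 4 downregulated and 6 of the second list called, while 9.26% of all genes tested were upregulated and 4.12% downregulated. The deviations of same-numbered samples correlated at 0.52 for numbers 1 and 3 but at -0.39 for number 2, and CTL replicate 3 correlated best with Nelfb-/- replicate 2 (0.54), so that the numbers were not taken to pair the samples. Genes under 0.449 CPM, C6 and C7 among them, were tested only without the filter, where C7 was called and 10 complement genes were upregulated.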
